A study of Drosophila melanogaster with 6 samples.

Results

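The head gap genes are the zygotic patterning genes that act in broad, overlapping bands across the front of the Drosophila embryo. The 6 genes described here were taken by name: buttonhead (btd), Sp1, empty spiracles (ems), ocelliless (oc, also called orthodenticle), crocodile (croc) and cap-n-collar (cnc). All 6 were among the 9073 genes of the deposited table. Messenger RNA was sequenced from whole late-blastoderm embryos of the wild-type strain Oregon R, after cell formation and before the ventral furrow folds in. Embryos had been injected before cells formed, either with water (3 libraries) or with double-stranded RNA (dsRNA) against both even-skipped (eve) and runt (run) at 1 µg/µl each (3 libraries). Both groups shared egg collection at 25 °C over 0 to 1 h, ageing at 18 °C and a pool of about 50 embryos per library. The labels name no transgene or mutation in either group.

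In the early embryo the maternal Bicoid protein forms a gradient from the front end and, with the terminal system of the Torso receptor, switches on the head gap genes. Unlike the trunk, where pair-rule genes such as eve and run stand between the gap genes and the segments, the head is divided more directly by overlapping head gap domains. Btd and Sp1 encode related zinc-finger proteins of the Sp family. Ems and oc encode homeodomain proteins needed for the antennal and brain segments, croc encodes a forkhead protein needed in the foremost head, and cnc encodes a leucine-zipper protein needed for the labral and mandibular segments. Eve and Runt are transcription factors of the trunk stripes, and the series was made to find their target genes.

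Reads assigned to genes numbered 23234425 to 49364110 per library. Levels below are normalised read counts, that is, reads per gene divided by a size factor of the library, given as mean ± SD (n = 3 in each group), and values of single libraries follow the order of replicates 1, 2 and 3. A log2 fold change ± SE is dsRNA relative to water after 1 was added to each normalised count, which understates changes of genes with few reads. Of the dsRNA targets, run had levels of 2969 ± 683 (water) and 1877 ± 127 (dsRNA; log2 −0.64 ± 0.18), and eve at 2534 ± 734 and 2658 ± 304 (log2 0.11 ± 0.23), and the groups overlapped for eve. Without water replicate 2 the log2 fold changes were −0.83 ± 0.10 for run and −0.16 ± 0.11 for eve, so that the direction of eve rests on that library. Water replicate 2 differed from the remaining 5 libraries, with a score of 60.6 on a first principal component that held 54.7% of the variance, where the others lay between −27.7 and 5.61. It was the highest water library for 12 of 13 measured maternal RNAs and the lowest for 23 of 24 other head genes. Across all 9073 genes it was the highest water library for 3862 and the lowest for 3875.

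Of the 6 head gap genes, btd, ems and oc were higher in each dsRNA library than in all 3 water libraries, by 2.67-fold, 2.11-fold and 1.80-fold. Across all genes 2.99% were higher without overlap in this way and 3.36% were lower. Croc, cnc and Sp1 overlapped between the groups. In the test over all 9073 genes (limma-trend, Benjamini-Hochberg adjusted p under 0.05) 0 of the 6 passed, where 0.011% of all genes did (1 gene, noc). An unadjusted limma p under 0.05 was reached by 3 of 6, all higher after dsRNA, where 1.07% of all genes were called higher. With limma-voom, too, 0 of 6 passed. The genes were chosen with earlier results of these data known, so their counts describe them and are not independent support. In whole embryos, a change in the number of cells that make a transcript and a change in transcript per cell cannot be told apart.

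**Figure D1:**
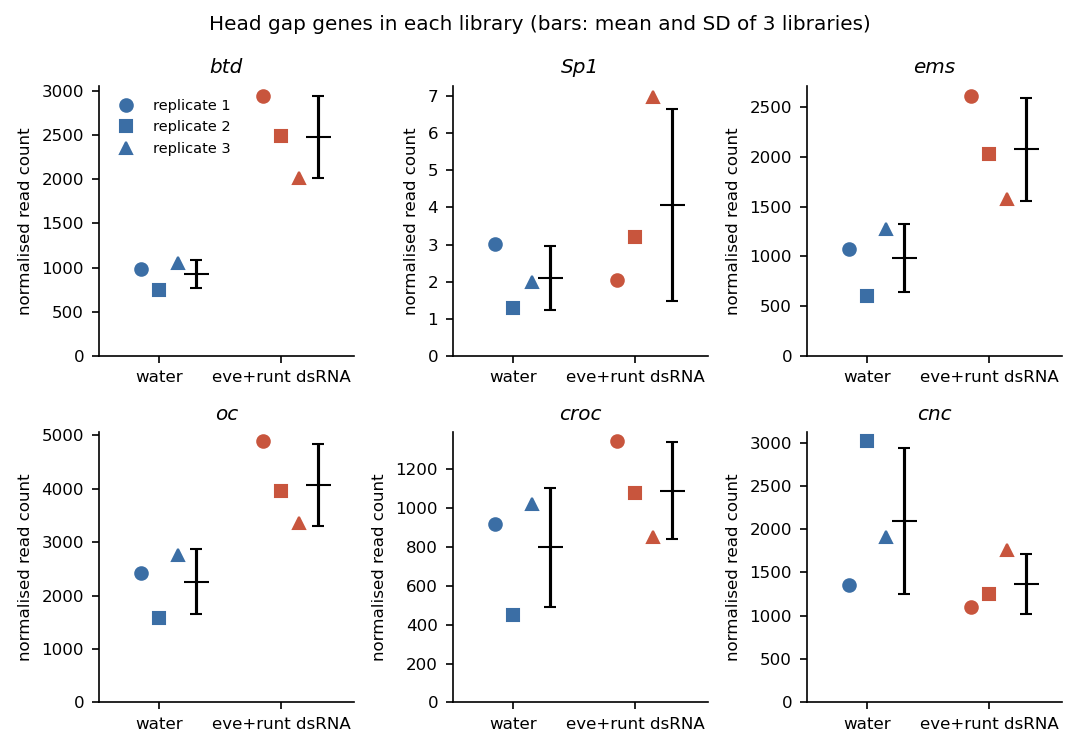
Normalised read counts of the 6 head gap genes (vertical axes from 0, a different scale for each gene) in the 3 water libraries (blue) and the 3 eve+runt dsRNA libraries (red); symbols mark replicate numbers and bars the mean and SD. The red points of btd, ems and oc lie above all blue points, whereas those of Sp1, croc and cnc overlap with them.

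Buttonhead had the largest log2 fold change of the 6. The gene (CG12653; BDGP6 chromosome X, 9694186 to 9697558, plus strand) has 1 annotated transcript and is needed for the antennal, intercalary and mandibular segments. It stood at 984, 749 and 1056 normalised counts in the water libraries. Its dsRNA libraries held 2941, 2485 and 2011. The groups were far apart, since the lowest dsRNA library was 1.90 times the highest water library. Its means were 930 ± 161 and 2479 ± 465, with a log2 fold change of 1.41 ± 0.18 and a 95% interval of 0.97 to 1.85. Btd ranked 15th of 9073 genes by log2 fold change and 4th by p-value, yet its limma adjusted p was 0.363. Water replicate 2, the lowest library, mattered little to the size, which was 1.26 ± 0.15 without it (limma adjusted p = 0.0767). With libraries weighted by their estimated quality, btd passed the threshold (log2 1.38 ± 0.11, limma adjusted p = 0.00748), as 5 of all 9073 genes did.

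Sp1, the relative of btd that lies next to it on the chromosome, was close to silent at this stage. The gene (CG1343; BDGP6 chromosome X, 9729648 to 9756369, plus strand) starts 32.1 kb beyond the end of btd, with no listed gene between them. It took 4, 1 and 2 reads in the water libraries. In the dsRNA libraries it took 3, 3 and 5 reads. These are 7 reads in all for water and 11 for dsRNA, against 2948 and 8090 for btd in the same libraries. Sp1 ranked 8985th of 9073 genes by level in water, so that the label of a head gap gene rests on its family and not on a level measured here. Its log2 fold change of 0.63 had a 95% interval of −0.58 to 1.84, and neither a rise nor a fall was detectable at this depth.

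Empty spiracles and ocelliless, the homeodomain members, moved in near parallel. Ems (CG2988; BDGP6 chromosome 3R, 13901853 to 13904620, plus strand), named for the tracheal openings that it also helps to form, stood at 1072, 605 and 1278 in the water libraries. After dsRNA its levels were 2611, 2033 and 1581 in replicates 1, 2 and 3. The lowest dsRNA library was thus 1.24 times the highest water library, a smaller gap than that of btd. The means of ems were 985 ± 345 and 2075 ± 517, a log2 fold change of 1.11 ± 0.31 with a 95% interval of 0.37 to 1.85 (limma adjusted p = 0.999).

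Oc (CG12154; BDGP6 chromosome X, 8630159 to 8650681, minus strand) encodes the Orthodenticle protein of the foremost head and brain, and is annotated with 6 transcripts from 3 start sites. It stood at 2418, 1588 and 2766 in the water libraries. With dsRNA its counts were 4885, 3954 and 3353. Again the dsRNA libraries were all above the water libraries, the closest pair differing by a factor of 1.21. The means were 2258 ± 605 and 4064 ± 772, a log2 fold change of 0.87 ± 0.23 with a 95% interval of 0.32 to 1.42 (limma adjusted p = 0.999). The libraries lay in the same order for ems, oc and btd, namely dsRNA replicates 1, 2 and 3, then water replicates 3, 1 and 2. This order was shared by 31 of the 9073 genes, these 3 included. Without water replicate 2 the log2 fold changes were 0.80 ± 0.20 for ems and 0.63 ± 0.15 for oc.

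Crocodile, the forkhead member, shared the order of libraries within each group but not the separation of the groups. The gene (CG5069; BDGP6 chromosome 3L, 21474133 to 21476479, minus strand) has 1 annotated transcript in a single exon. It stood at 921, 452 and 1023 in the water libraries. With dsRNA its counts were 1346, 1078 and 850. The third dsRNA library was below water replicates 1 and 3, so the groups overlapped. Means were 799 ± 305 and 1091 ± 248, a log2 fold change of 0.51 ± 0.33 with a 95% interval of −0.29 to 1.31 (limma adjusted p = 0.999). The value rested largely on water replicate 2 and was 0.14 ± 0.19 without it.

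Cap-n-collar was the only one of the 6 with a negative log2 fold change. The gene (listed as CG17894, now CG43286; BDGP6 chromosome 3R, 23185580 to 23226711, minus strand) has 16 annotated transcripts from 10 start sites. One of its isoforms is made in the head segments and others are widespread and loaded by the mother, and a count per gene does not separate them. Its exons also overlap those of CG46310 and Irk1 on the other strand. Whether reads from the shared stretches were counted for cnc or set apart as ambiguous is not known, since annotation and use of strand are not given. It stood at 1357, 3017 and 1913 in the water libraries. In the dsRNA libraries it stood at 1097, 1247 and 1758. Water replicate 2 was by far the highest library, and dsRNA replicate 3 lay within the water range. Between libraries of the same replicate number, which deviated together across genes, cnc was lower after dsRNA in 3 of 3 pairs. Its log2 differences were −0.31, −1.27 and −0.12. Btd, ems and oc were higher in 3 of 3 such pairs, and croc and Sp1 in 2 of 3. For btd, ems and oc any pairing had to give this, since their groups did not overlap, so it adds nothing to that separation. This pairing comes from the data, and the shares of all genes lower or higher in 3 of 3 pairs were not counted. The means of cnc were 2096 ± 845 and 1368 ± 346, a log2 fold change of −0.57 ± 0.31 with a 95% interval of −1.31 to 0.18 (limma adjusted p = 0.999). Without water replicate 2 it was −0.27 ± 0.22, and with the replicate number as a block −0.57 ± 0.24 (limma adjusted p = 0.898).

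**Figure D2:**
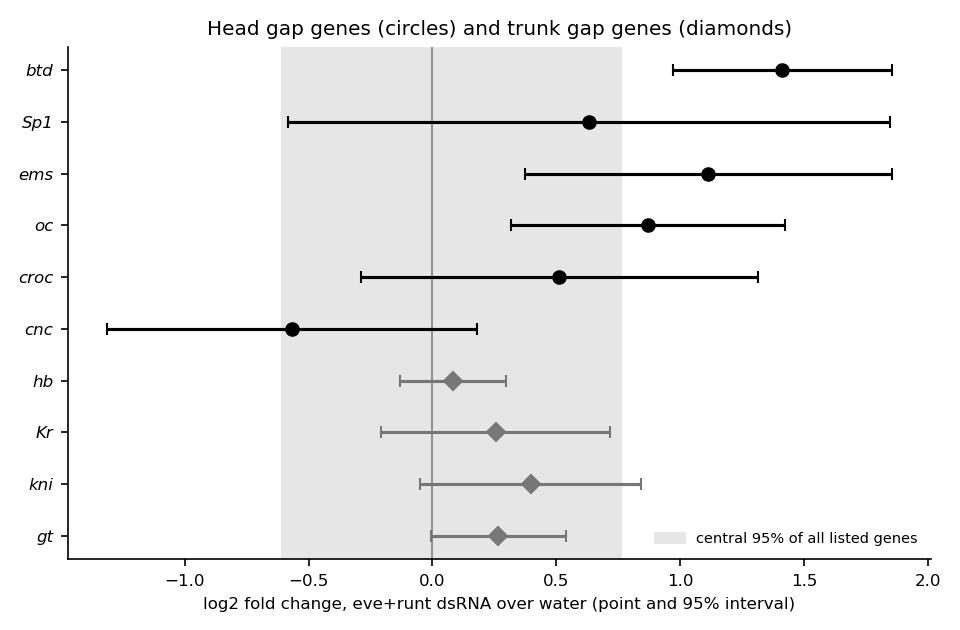
Log2 fold change of eve+runt dsRNA over water (horizontal axis, point with 95% interval from limma-trend) for the 6 head gap genes (circles) and the 4 trunk gap genes (diamonds); the grey band holds the central 95% of all listed genes, −0.61 to 0.76. Btd, ems and oc lie above the band and all 4 trunk gap genes lie within it.

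The head gap genes other than Sp1 took 351 to 7166 reads per library, which gives a counting error (Poisson SD) of 1.18% to 5.34% of a value. The SD between libraries of a group was 17.3% of the mean for btd in water and 18.8% after dsRNA. For ems, oc, croc and cnc it was 35.0%, 26.8%, 38.1% and 40.3% in water, and 24.9%, 19.0%, 22.7% and 25.3% after dsRNA.

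Divided by the length of annotated exons, the mean levels of the head gap genes other than Sp1 lay between 228 and 448 normalised counts per kb in water. Oc had 448 ± 120 normalised counts per kb, ems 397 ± 139, croc 340 ± 130, btd 317 ± 54.8, cnc 228 ± 92.0 and Sp1 0.477 ± 0.199. Neighbours in this order from oc to btd differed by less than the SD of either. Btd and cnc differed by more than the SD of btd and by less than that of cnc. After dsRNA the order per kb became btd at 845 ± 159, ems at 837 ± 208, oc at 806 ± 153, croc at 465 ± 106, cnc at 149 ± 37.7 and Sp1 at 0.926 ± 0.587. The first 3 did not differ beyond their spread, and croc was below each of them in every dsRNA library. Btd thus went from the fourth place to the first. The length of cnc sums exons of all its isoforms, which lowers its value per kb where only some are made.

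The difference in response between btd and the other members was examined as log2 ratios within each library, with 1 added to each normalised count. The ratio of btd to oc was −1.30, −1.08 and −1.39 in the water libraries and −0.73, −0.67 and −0.74 in the dsRNA libraries. Its group means differed by 0.54, and all 3 dsRNA libraries lay above all water libraries. The ratio of btd to croc was 0.09, 0.73 and 0.05 in water and 1.13, 1.20 and 1.24 after dsRNA, a difference of 0.90 with all 3 above. The ratio to cnc differed by 1.98, again with all 3 above. In contrast, the ratio of btd to ems was −0.12, 0.31 and −0.27 in water and 0.17, 0.29 and 0.35 after dsRNA, with 1 of 3 above all water libraries. The ratio to Sp1 rested on its few reads, where the added 1 lowers the ratio, and had 2 of 3 above. A two-sided exact permutation test of 3 against 3 libraries gave p = 0.1 for oc, croc and cnc (0.167 after Benjamini-Hochberg adjustment over the 5 ratios) and p = 0.3 for ems and Sp1. The smallest p that this design allows is 0.1, so no ratio could pass 0.05.

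**Figure D3:**
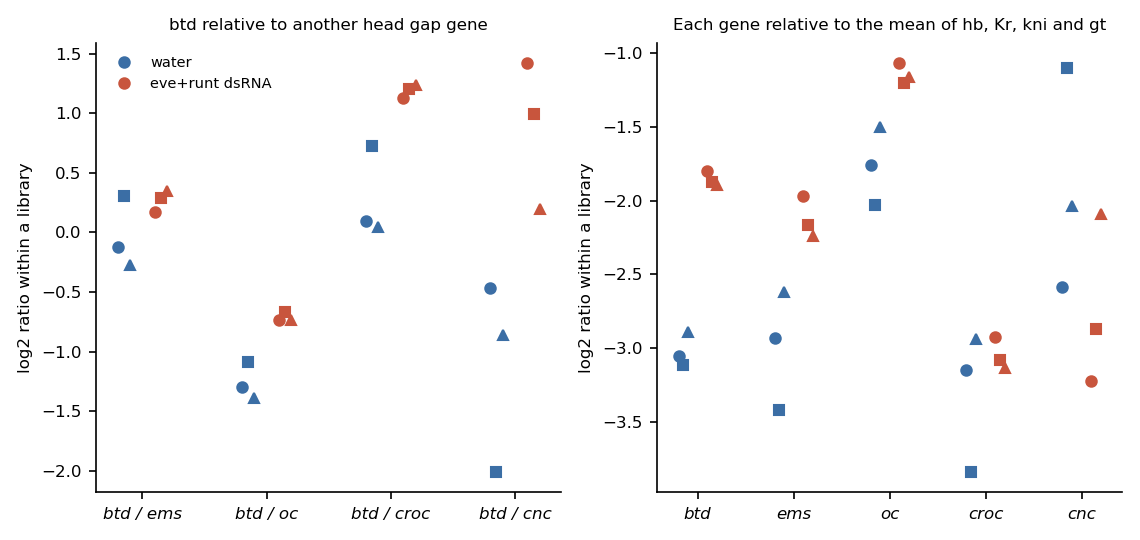
Log2 ratios within each library (vertical axes) of btd to 4 other head gap genes (left) and of 5 head gap genes to the mean of hb, Kr, kni and gt (right), in water (blue) and eve+runt dsRNA (red) libraries; symbols mark replicate numbers as circle 1, square 2 and triangle 3. The red points of btd over oc and btd over croc lie together above all blue points. For btd over ems 1 of 3 red points lies above all blue points.

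Within the dsRNA group the ratios among btd, ems, oc and croc were steady while their levels were not. The ratio of btd to oc had an SD of 0.04 over the dsRNA libraries and 0.16 over the water libraries, and the ratio of btd to croc 0.06 and 0.38. Over the same dsRNA libraries btd itself ranged 1.46-fold. The 4 genes were all highest in dsRNA replicate 1 and lowest in dsRNA replicate 3, and highest in water replicate 3 and lowest in water replicate 2. Of all genes, 5.97% had this order within the groups.

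The gap genes of the trunk (hb, Kr, kni, gt) had smaller log2 fold changes than btd, ems and oc. Hb is also listed below among the inputs to the head gap genes, and gt among the other head genes. The 4 are thus no reference for the trunk alone. The log2 fold changes of hb, Kr, kni and gt were 0.08 ± 0.09, 0.26 ± 0.19, 0.40 ± 0.19 and 0.27 ± 0.11. Of the 4, 0 passed limma over all genes, where 0.011% of all genes did. An unadjusted limma p under 0.05 was reached by 0 of 4 (1.07% of all genes were higher so and 1.2% lower). Gt and kni came closest to that line. Counts from only 4 genes do not set this list apart from all genes. Relative to the mean of these 4 in the same library, btd was at −3.05, −3.11 and −2.89 (log2) in the water libraries. In the dsRNA libraries it stood at −1.80, −1.87 and −1.90. The difference was 1.16, with an SD of 0.11 over the water libraries and 0.05 over the dsRNA libraries. Relative to the same mean, ems differed by 0.86 and oc by 0.62, with all 3 dsRNA libraries above all water libraries for both. Croc differed by 0.26 with 1 of 3 above, Sp1 by 0.38 with 1 of 3 above, and cnc by −0.82 with 2 of 3 below. By a two-sided exact permutation test p was 0.1 for btd, ems and oc, the smallest value possible, and 0.2 after adjustment over the 6 ratios. It was 0.4, 0.7 and 0.2 for croc, Sp1 and cnc.

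Median values of other gene lists varied between the libraries beside those of the head gap genes. Each list was summarised as the median of its genes' log2 deviations from their 6-library means. The 13 maternal RNAs lay at −0.10, 0.39 and −0.05 in the water libraries. In the dsRNA libraries they lay at −0.22, −0.05 and 0.10. Among the members, cnc was also highest in water replicate 2 and lowest in dsRNA replicate 1, at 0.89 and −0.57 on that scale. The maternal RNAs summed to 179259 to 259601 normalised counts in water and 155473 to 199577 after dsRNA.

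The 5 cellularisation genes (nullo, bnk, slam, Sry-alpha and halo), which build the first cell membranes, had medians of 0.00, −0.40 and 0.05 in the water libraries. Their medians in the dsRNA libraries were 0.40, 0.21 and −0.28. They summed to 187173 to 249304 in water and 204911 to 327744 after dsRNA. Slam, Sry-alpha and halo, 3 of the 5, had the order of libraries within the groups that btd, ems, oc and croc had, and in 4 of the 5 dsRNA replicate 3 was below both water replicates 1 and 3. The exception was nullo, which was higher in every dsRNA library than in any of the water libraries, as btd, ems and oc were (log2 0.81 ± 0.12; limma adjusted p = 0.627, and 0.0293 without water replicate 2). The 6 measured pole-cell genes summed to 10742 to 14779 in water and 10476 to 12042 after dsRNA, and 15 measured genes of later embryos to 4742 to 10024 and 8206 to 9910. Much of the latter sum was 1 gene, sca, with 2512 to 5840 in water and 5064 to 6751 after dsRNA. The medians of the later-embryo genes were 0.08, −0.93 and 0.33 in the water libraries and −0.18, 0.08 and 0.18 in the dsRNA libraries. No measured marker of these lists was at 0 in every library. The part of these differences between libraries in the levels of the head gap genes was not tested, beyond the values without each library.

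**Figure D4:**
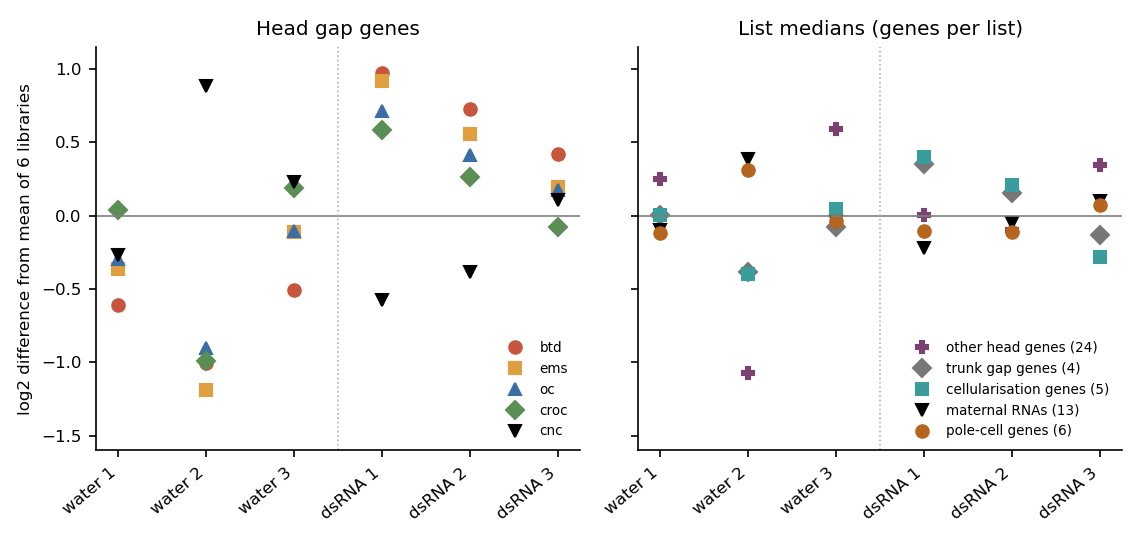
Log2 difference of each library from the mean of the 6 libraries (vertical axis) for 5 head gap genes (left) and as the median of 5 gene lists (right), with water libraries before the dotted line and eve+runt dsRNA libraries after it. Btd, ems and oc lie below 0 in every water library and above 0 in every dsRNA library, whereas cnc and the maternal RNAs are highest in water replicate 2.

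Genes that act before the head gap genes did not pass the test. Of 13 listed inputs, 0 passed limma over all genes, where 0.011% of all genes did. At an unadjusted limma p under 0.05, 0 were higher and 1 was lower (1.07% and 1.2% of all genes were so). With so few genes, these counts do not set the inputs apart from all genes. The median log2 fold change of the inputs was 0.05 where the median of all genes was −0.002. The one that was lower, stau, encodes an RNA-binding protein that anchors bicoid mRNA, and its log2 fold change was −0.15 ± 0.06. Next by p-value came the terminal gap gene tll, at 4333 ± 404 and 5512 ± 1179 (log2 0.33 ± 0.16), followed by swa and exu, both needed to place bicoid mRNA, at −0.52 ± 0.33 and 0.23 ± 0.18. Bicoid mRNA (bcd) had 4626 ± 1352 normalised counts in the water group and 3967 ± 924 in the dsRNA group, a log2 fold change of −0.21 ± 0.24.

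Nor did other genes of the embryonic head pass. Of 24 listed head genes, 0 passed over all genes, where 0.011% of all genes did. An unadjusted limma p under 0.05 was reached by 0 (1.07% of all genes were higher so and 1.2% lower). Groups without overlap were found for 0 of 24, against 6.35% of all genes. With so few genes, these counts do not set the list apart from all genes. A positive log2 fold change was seen for 18 (median 0.24), where 49.5% of all genes were positive. The lowest p-values belonged to gt, which is also counted among the trunk gap genes, and to hbn, so and D. Homeobrain (hbn), a homeobox gene of the brain primordium, stood at 636 ± 140 and 865 ± 202 (log2 0.44 ± 0.24). The Six-family gene so, of the visual primordium, stood at 22.4 ± 8.26 and 13.2 ± 3.99 (log2 −0.69 ± 0.41). The Sox gene D stood at 10885 ± 1228 and 13526 ± 3170 (log2 0.29 ± 0.19). Collier (kn), a head gene known to depend on btd, had few reads and overlapping groups (log2 0.84 ± 0.82). It stood at 31.7, 5.15 and 28.8 normalised counts in the water libraries and at 21.8, 18.1 and 78.2 in the dsRNA libraries. Its dsRNA replicates 1 and 2 were thus below water replicates 1 and 3. Kn was named after its value was seen.

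Genes next to the head gap genes on the chromosome were compared to see whether a change extended beyond the member. On either side of btd lie nej, a co-activator gene 7.12 kb away, and Sp1. Nej stood at 54480 ± 6734 and 54355 ± 5329, a log2 fold change of −0.0007 ± 0.10. Beyond Sp1, CG1354 stood at −0.02 ± 0.06. The neighbours of oc, CG12109 and Rubicon, stood at −0.02 ± 0.08 and 0.21 ± 0.24, and those of croc, Syx7 and Neu2, at 0.01 ± 0.12 and 0.05 ± 0.11.

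E5, a homeobox gene related to ems that lies 26.9 kb from it, was the one neighbour other than btd and Sp1 with a log2 fold change over 0.5. It was at 14.4, 12.9 and 12.9 normalised counts in the water libraries and at 19.1, 25.5 and 18.2 in the dsRNA libraries. The groups did not overlap, and the log2 fold change was 0.60 ± 0.27 (limma adjusted p = 0.999). On the other side of ems, CG31517 stood at −0.05 ± 0.09. The nearest listed genes beside cnc that do not overlap it, VhaAC39-2 and CG4467, had few reads and stood at −0.28 ± 0.36 and 0.12 ± 0.36. A further 1 listed gene overlaps the span of cnc and was not compared.

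Likeness to each member was described by Pearson's r of log2 levels over the 6 libraries, among genes with a mean of at least 100 normalised counts and an SD of at least 0.3 (log2). All r values share the same 6 libraries and the separation of the 2 groups, and are given with no p. For btd the 3 most alike genes were the cell-death activator skl (r = 0.98), noc, a zinc-finger gene (r = 0.97), and upd1, a ligand gene of the JAK/STAT pathway (r = 0.96). For ems the first was oc and for oc the first was ems (r = 0.9995), and for both the cell-death activator rpr (r = 0.99) and sprt (r = 0.99) followed. For croc they were Jhe, CG5888 and the mesoderm gene twi (r = 0.9997, 0.999 and 0.997), and for cnc CG12948, Cyp6u1 and CG6276 (r = 0.997, 0.997 and 0.996). Sp1 has too few reads for such a description.

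The genes alike to btd, ems and oc had groups without overlap, while those alike to croc and cnc did not. Being chosen by r over these same libraries, they largely had to share the separation or overlap of their member, so this is no separate result. Noc, the 1 gene past the threshold, stood at 2350 ± 182 and 5955 ± 426 (log2 1.34 ± 0.09, limma adjusted p = 0.0157). Skl and rpr stood at log2 0.65 ± 0.19 and 0.92 ± 0.26, and upd1 at 0.74 ± 0.18. Twi stood at 5812 ± 1609 and 7029 ± 1130 (log2 0.30 ± 0.23). A value of r over 0.95 was reached by 6 genes for btd, 16 for ems, 16 for oc, 60 for croc and 232 for cnc, of 1454 genes compared for each.

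**Figure D5:**
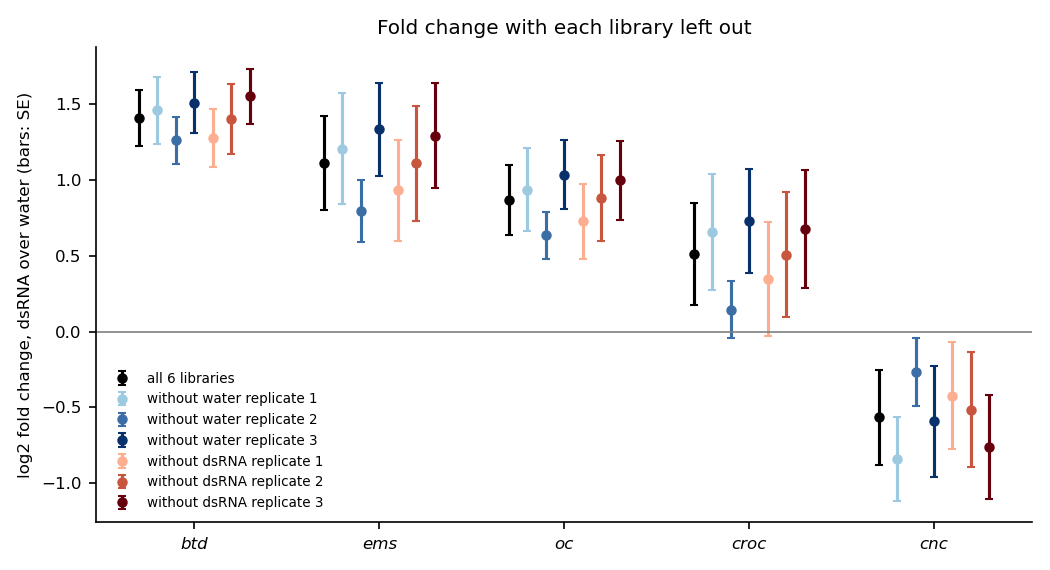
Log2 fold change of dsRNA over water with its SE (vertical axis) for 5 head gap genes, from all 6 libraries (black) and with each water library (blue shades) or dsRNA library (red shades) left out. Btd stays between 1.26 and 1.55, and croc falls to 0.14 without water replicate 2.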

How the data were processed

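Per the labels, poly(A) TruSeq libraries of about 50 embryos each were sequenced, 3 per group; groups and replicate numbers came from the titles. The labels do not tie replicates to days of injection, and the p-values reflect variation among these pools only. The submitters' processing notes name TopHat2 2.0.9, Bowtie2, HTSeq, DESeq and the build dm3; neither annotation nor use of strand is given there. Values as deposited are a normalised signal: each value minus 1 was a whole multiple of 1 step per library (100% of values within 0.01 read), that is, a read count divided by a size factor. Dividing out the step gave reads. Rows that name no gene (12.4% to 14.8% not unique, 0.720% to 0.750% ambiguous, 4.32% to 4.91% outside genes) were left out.

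Names came from a RefSeq table (Release 6 plus ISO1 MT; 9010 of 9073 matched), and positions and exon lengths from the BDGP6 annotation, a build other than dm3. Log2(normalised count + 1) was tested with limma 3.58.1 (trend, robust) in R 4.3.3, with no block and no gene removed by a minimum mean of 1; the script was tested on simulated data. Members and lists were chosen with earlier results of these data known. Named genes were the members, eve, run, the gene called, up to 4 per list with the lowest p, the 3 most alike genes and the nearest listed neighbours; bcd, kn and the ratios to the trunk gap genes were added after the values were seen. Libraries of a group were no copies of each other (chi-square of reads 15.8 to 80.5 per degree of freedom). Same-numbered libraries deviated together across genes (r = 0.24, 0.37 and 0.22; other pairs −0.38 to 0.11), so the number served as a block in an alternative fit; this pairing comes from the data. Other alternatives were scalings, pseudocounts, a mean of at least 5 CPM, limma-voom, quality weights and leaving out each library.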

Additional observations from a re-analysis of the deposited data

How the results depend on the processing

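The log2 fold changes of all 6 head gap genes kept their sign under every alternative run, and without water or dsRNA replicates in turn btd ranged from 1.26 to 1.55, ems from 0.80 to 1.33, oc from 0.63 to 1.03, croc from 0.14 to 0.73, cnc from −0.84 to −0.27 and Sp1 from 0.24 to 0.94. For btd the limma adjusted p over all alternatives ranged from 0.000718 to 0.9999. With quality weights 5 genes passed over all genes, of which 1 was a head gap gene (btd). With weights by REML, added after seeing the data, 302 genes and 3 members (btd, ems and oc) passed. That estimate stopped before it converged and gave water replicate 1 a weight of 14.9 and water replicate 2 a weight of 0.160. With the replicate number as a block 0 genes passed, and btd stood at 1.41 ± 0.18 (limma adjusted p = 0.898). Leaving out 1 library gave 0 to 4 genes and 0 members, and 3 to 5 members without overlap between groups: 5 without water replicate 1 (with Sp1 and cnc), where 14.4% of all genes had no overlap, and 5 without dsRNA replicate 3 (with croc and cnc), where 29.4% did, against 6.35% with all 6 libraries. The cause of these shifts was not tested. Sp1 is left out where a mean of 5 CPM is required. The planned count models (edgeR and DESeq2) were not run. Few reads limit Sp1 among the members, and also E5, so, kn, VhaAC39-2 and CG4467.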

Other observations

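The 8 measured segment-polarity genes set the boundaries of segments after the head gap and pair-rule genes. Of these, hedgehog (hh) was the 1 with an unadjusted limma p under 0.05 (1.07% of all genes were higher so). Its normalised counts were 59.7, 30.9 and 107 in the water libraries and 167, 125 and 144 in the dsRNA libraries. The groups did not overlap (2.99% of all genes were higher in this way), and the log2 fold change was 1.29 ± 0.44 (limma adjusted p = 0.999). The list had a median log2 fold change of 0.22, and water replicate 2 was the lowest water library for 7 of 8 genes (3875 of all 9073 genes). Of the 9 pair-rule genes 6 had positive values, with a median of 0.08. At an unadjusted limma p under 0.05, 2 were lower (1.2% of all genes were lower so, and 3.36% were lower without overlap). The 2 were the dsRNA target run (log2 −0.64 ± 0.18), without overlap between groups, and ftz (−0.73 ± 0.30). Without water replicate 2, ftz passed over all genes (−1.10 ± 0.08, limma adjusted p = 0.00335). For all 9 genes water replicate 2 was again the lowest water library. These genes were named after their values were seen.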
